A study of Homo sapiens with 6 samples.

Results

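The genes described here lie along a stretch of the long arm of human chromosome 16, in bands q21 to q22. They were taken by name, as a list of 54 genes, out of the 15284 genes that both deposited count tables hold. Of the 54, 53 were found under the listed symbol and 1, FAM96B, under its current symbol CIAO2B. The members were chosen by their position and by their levels in KO2 and WT, which had looked raised in KO2 in earlier results of these data, so the KO2 values below are a description and carry no test. A filter on low counts kept 12678 genes, 53 members among them. The chemokine-like factor CKLF did not pass it and had 27 reads over all 6 libraries, 0 and 4 in KO2, 2 and 6 in KO1 and 6 and 9 in WT.

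The cells were HCT116, a human colorectal carcinoma line, and poly(A) RNA was sequenced in 3 groups of 2 libraries. KO2 and KO1 cells were infected with a lentivirus made from lentiCRISPR v2, a vector for Cas9 and a guide RNA, and each group received its own guide against MUC3A, the gene of a membrane-bound mucin. Infection was at a multiplicity of 10 and selection was with puromycin at 2 µg/mL for 72 h. WT is the control group. Its labels read wild type for genotype and negative control for treatment, and a scrambled lentivirus is also described, so it is not known whether these controls were infected and selected. The labels do not say whether KO2 and KO1 are clones or pools of edited cells. Within each group 1 library has a name starting with HCT and the other with HCT116; this prefix is not explained, and the name of a set of libraries below is its prefix. Paired values give the HCT library and then the HCT116 library. The labels number the libraries of a group as replicates without naming separate cultures. The fits hold the prefix as a term, so p-values cover only the spread left once the shared difference between sets is removed. That spread could be technical.

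Neighbouring genes on a chromosome arm need not share a function. What they do share is their place: a gain or loss of DNA, or of open chromatin over a long stretch, reaches all of them together, whereas a transcription factor acts on its targets wherever they lie. The genes of this stretch include well known examples from many pathways, such as the genome organiser CTCF, the deadenylase scaffold CNOT1, the mitochondrial aminotransferase GOT2 and the cell cycle repressor E2F4. DNA copy number was not analysed here.

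The target sites of both guides are shown because they define the groups. Each was found in exon 2 of MUC3A on chromosome 7, in GENCODE transcripts on GRCh38; the PAM that follows the site is in capitals. The KO2 site lies at chr7:100951917-100951936 on the plus strand and the KO1 site at chr7:100952090-100952109 on the minus strand.
KO2 guide: ttctccacactccagagaccTGG
KO1 guide: gaaggcaaacttggacgtcgGGG
In the transcripts of the 54 members, the closest match to either guide beside an NGG PAM had 6 mismatches. MUC3A RNA itself stood at 30.04 and 24.6 CPM, the usual count unit scaled to library size, in KO2, 52.9 and 28.6 in KO1 and 52.7 and 25.1 in WT. The libraries of the groups overlapped. Within each set KO2 lay below WT, by more in the HCT set, and KO1 did not.

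Promoters of 3 members are shown: ATP6V0D1 and FHOD1, which stood among the clearest KO2 differences, and CMTM4, which stood lowest. Each has a single annotated start in RefSeq. Windows on GRCh38.p14, from 250 bases before to 50 after a start, were found for 45 of the 54 members, as 61 windows. Capitals mark any of 5 short motifs, searched on both strands and found not to overlap in these windows. GGGCGG is the GC box read by SP1 and its relatives, and CCAAT is the motif of the factor NF-Y. CACGTG is the E-box of MYC, USF and TFE3, among other factors. CCGGAAG is a core read by ETS factors, and TATAAA stands for the TATA box. The windows are chr16:67481108-67481407 for ATP6V0D1, chr16:67247432-67247731 for FHOD1 and chr16:66696694-66696993 for CMTM4, and each is written along the minus strand.
ATP6V0D1: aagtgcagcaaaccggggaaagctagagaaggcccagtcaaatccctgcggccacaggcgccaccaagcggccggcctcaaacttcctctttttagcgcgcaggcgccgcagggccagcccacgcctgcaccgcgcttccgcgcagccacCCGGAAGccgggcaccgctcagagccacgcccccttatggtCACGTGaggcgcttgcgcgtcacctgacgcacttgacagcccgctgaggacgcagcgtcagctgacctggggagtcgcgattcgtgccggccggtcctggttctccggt
FHOD1: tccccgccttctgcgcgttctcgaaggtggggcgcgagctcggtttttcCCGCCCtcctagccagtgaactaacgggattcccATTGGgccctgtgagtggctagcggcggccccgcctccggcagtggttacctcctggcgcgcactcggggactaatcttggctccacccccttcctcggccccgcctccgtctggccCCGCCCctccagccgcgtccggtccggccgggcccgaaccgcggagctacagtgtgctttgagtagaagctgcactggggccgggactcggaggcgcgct
CMTM4: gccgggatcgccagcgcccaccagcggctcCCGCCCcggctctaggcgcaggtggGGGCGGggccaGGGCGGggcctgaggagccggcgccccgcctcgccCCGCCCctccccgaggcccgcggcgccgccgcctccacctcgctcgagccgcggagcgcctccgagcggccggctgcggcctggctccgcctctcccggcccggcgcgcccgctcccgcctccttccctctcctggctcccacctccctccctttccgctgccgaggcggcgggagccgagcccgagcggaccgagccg
The ATP6V0D1 window holds 1 E-box and 1 ETS core, the FHOD1 window 2 GC boxes and 1 CCAAT box, and the CMTM4 window 4 GC boxes. GC content was 67.7% in ATP6V0D1, 69.7% in FHOD1 and 82.7% in CMTM4. Over all 61 member windows the median GC content was 68.0%, against 65.0% over the 14645 windows of tested genes and 58.7% over all 35116 windows. A GC box was found in 70.5% of member windows, 65.8% of windows of tested genes and 45.0% of all windows. CCAAT was found in 26.2%, 34.1% and 34.6% of these windows, the E-box in 11.5%, 9.09% and 7.26% and TATAAA in 3.28%, 6.14% and 11.5%, in the same order. The ETS core was found in 9 of the 61 member windows, 2346 of the 14645 and 3603 of the 35116. In GC content and in the share with a GC box, member windows lay nearer to those of tested genes than to all windows. A match is a description of these letters only.

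Facts of the whole series set the frame for these genes. Total counts were 17830282 and 15277378 in KO2, 14370065 and 13670401 in KO1 and 14325699 and 13638724 in WT. The share of counts from mitochondrial genes was 8.90% and 6.95% in KO2, 5.94% and 4.20% in KO1 and 5.34% and 4.84% in WT, so both KO2 libraries stood above the other 4 in depth and in this share; the part of either in the results below was not tested. The colorectal epithelial markers EPCAM, CDH1, KRT8, KRT18, KRT19 and CDX2 had 215 reads or more in every library, and VIL1 had 0 to 3. Of the leukocyte markers PTPRC had 0 to 1 reads and LYZ 4 to 26. Of the fibroblast markers DCN had 0 to 1 and COL3A1 1 to 8, and COL1A1 444 to 1268. In bulk RNA, fewer cells of a type and less RNA per cell cannot be told apart.

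In order of position, the list runs from CSNK2A2, which starts at 58157907 on GRCh38, to ZFP90, which ends at 68576072. Between these lie 19 tested genes that are not on the list. A wide gene-poor interval splits the members: the 7 tested members up to GOT2 lie before it, and the other 46, from CMTM3 on, lie after it. Levels spanned a wide range. Per kilobase of annotated exon, the mean WT level was 70.9 CPM for CIAO2B, a factor of cytosolic iron-sulfur protein assembly, followed by 64.2 for GOT2 and 53.3 for E2F4. The median over the 53 tested members was 8.20 CPM per kilobase, and the lowest were PSMB10 at 0.862 and TPPP3 at 0.214.

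The summed level of the 54 members was higher in KO2 than in WT in both sets. The members summed to 3198 and 3959 CPM in KO2, 2616 and 3286 in KO1 and 2650 and 3409 in WT. Within a set the KO2 sum was 1.21 times the WT sum in the HCT libraries and 1.16 times in the HCT116 libraries. For KO1 these ratios were 0.987 and 0.964. KO1 and WT lay close together in each set. The HCT116 library summed higher than the HCT library in every group, so the HCT library of KO2 lay below the HCT116 library of WT. Without CNOT1 and GOT2, the members with the most reads, the sums were 2680 and 3506 CPM in KO2, 2095 and 2868 in KO1 and 2106 and 3006 in WT, in the same order.

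**Figure D1:**
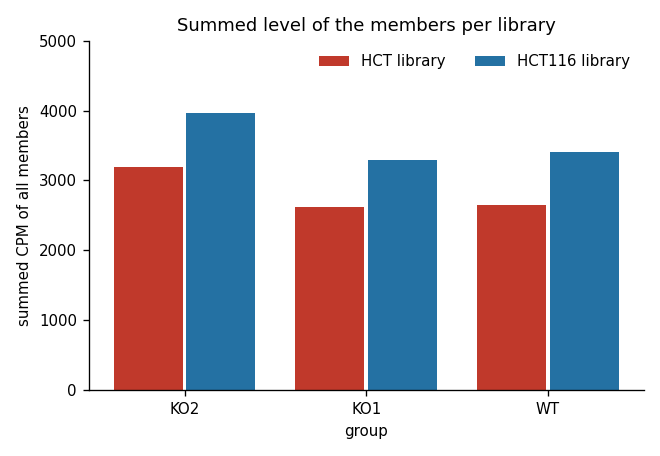
Bars give the summed CPM of the 54 members in each library, with KO2, KO1 and WT from left to right and the HCT library beside the HCT116 library of each group. KO2 sums (3198 and 3959 CPM) lie above the WT sums (2650 and 3409 CPM) of the same set, and KO1 sums (2616 and 3286 CPM) lie just below them.

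Gene by gene, the fitted log2 fold change of KO2 over WT was above 0 for 49 of the 53 tested members (92.5%), against 50.0% of all 12678 tested genes. Its median was 0.25, a 1.19-fold difference, and the quartiles over the members were 0.09 and 0.43; the median over all tested genes was 0.00 to 2 decimals. The ratio was above 1 within both sets for 38 members (71.7%, against 30.1% of all tested genes), below 1 within both for 2 and of opposite direction for 13. The median log2 ratio was 0.36 within the HCT set and 0.19 within the HCT116 one. By edgeR at an adjusted p of 0.05, 5 members were called higher and 0 lower, where 2.15% and 2.47% of all tested genes were; since the list was proposed on this contrast nothing is read from these counts. They also moved with the libraries used, and to 0 with no term for the set, where 0 of all tested genes were called. The median stayed between 0.21 and 0.31 under every alternative run. In 14 members (26.4%, against 11.9% of all tested genes) both KO2 libraries lay above both WT libraries. These were NDRG4, SLC38A7, NAE1, CES2, CES3, CBFB, FBXL8, HSF4, PLEKHG4, TPPP3, ZDHHC1, ATP6V0D1, CTCF and SLC7A6.

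**Figure D2:**
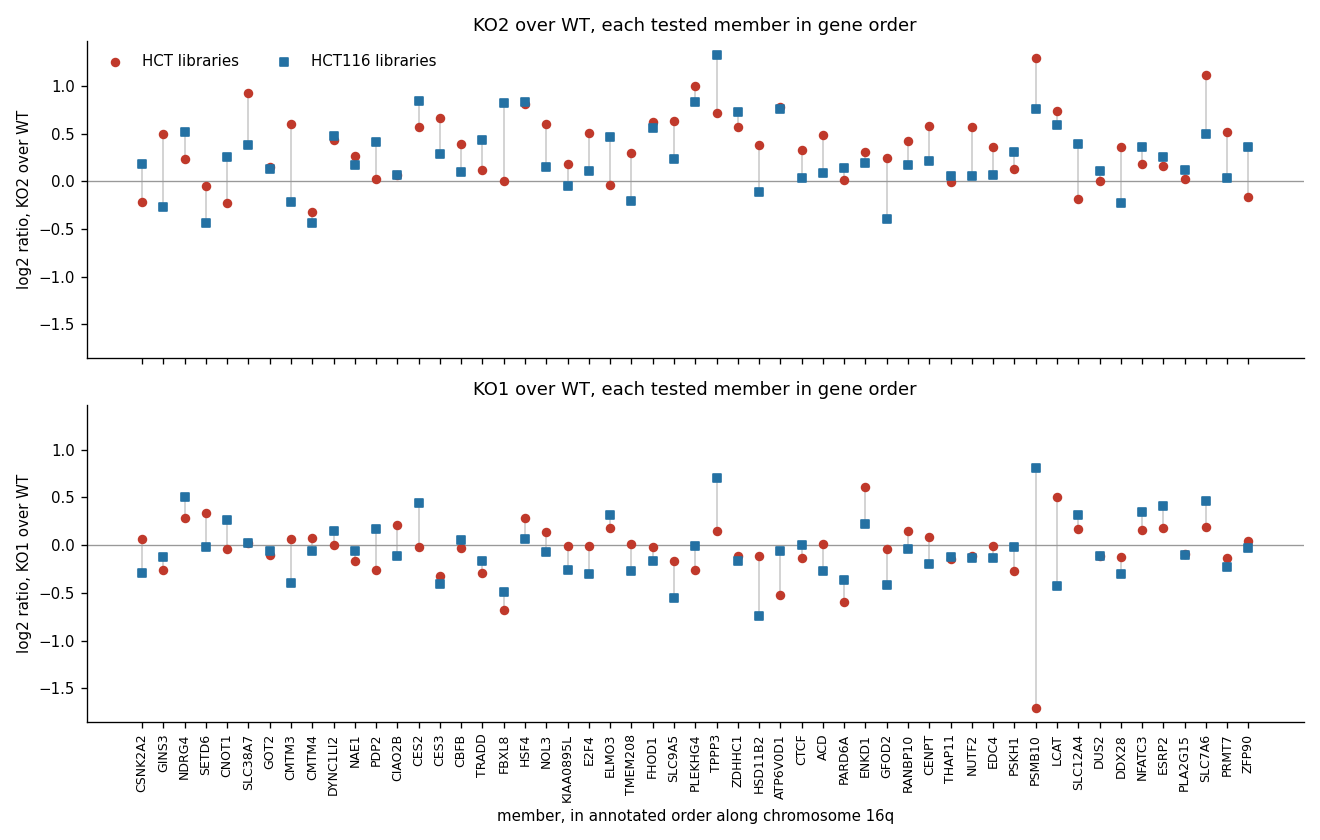
Each position on the horizontal axis is a tested member in chromosome order, and the vertical axis is the log2 ratio within a set, KO2 over WT above and KO1 over WT below; circles are HCT libraries and squares HCT116 libraries, joined by a line for each gene. Most KO2 points lie above 0 (medians 0.36 and 0.19), and KO1 points lie around 0 (medians −0.02 and −0.07).

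Transport genes had the highest median of the role groups, 0.66 over 5 members, which ran from 0.10 to 0.84. The groups were made with earlier results known, from a list proposed on KO2 against WT. Nothing is therefore read from their order. ATP6V0D1, a subunit of the membrane part of the vacuolar proton pump, had 105 and 178 CPM in KO2, 42.8 and 100.4 in KO1 and 61.4 and 105 in WT. Its lower KO2 value stood at the level of the higher WT value, while within each set KO2 was well above WT, and the fitted log2 fold change was 0.77. SLC7A6, a cationic amino acid exchanger that works with SLC3A2, had 30.7 and 20.4 CPM in KO2, 16.1 and 19.9 in KO1 and 14.1 and 14.4 in WT, with a fold change of 0.84 on the log2 scale. Its exons overlap those of SLC7A6OS on the other strand, and reads of overlapping genes cannot be told apart here. SLC38A7, a lysosomal glutamine transporter, had 22.9 and 27.4 CPM in KO2, 12.1 and 21.4 in KO1 and 12.0 and 21.1 in WT. Both KO2 libraries were higher than both WT libraries, and KO1 and WT coincided. The sodium-proton exchanger SLC9A5 had 20.6 and 27.2 CPM in KO2 and 13.3 and 23.05 in WT. The potassium-chloride cotransporter SLC12A4 differed in direction between the sets, with 70.4 and 80.3 CPM in KO2, 90.1 and 76.3 in KO1 and 80.1 and 61.4 in WT.

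Genes of the cytoskeleton and of GTPase control followed, with a median of 0.52 and 6 of 6 above 0. PLEKHG4, an exchange factor for small GTPases, had 86.6 and 148 CPM in KO2, 36.2 and 82.8 in KO1 and 43.3 and 83.2 in WT. Both KO2 libraries exceeded both WT libraries, with a log2 fold change of 0.92. FHOD1, a formin that assembles actin filaments, had 111 and 177 CPM in KO2, 71.0 and 107 in KO1 and 72.2 and 119.9 in WT, a log2 fold change of 0.59. KO2 was higher within each set, though the HCT library of KO2 lay below the HCT116 library of WT. TPPP3, a tubulin-binding protein, had the largest value, a log2 fold change of 1.14, on few reads: 22 and 20 in KO2, 11 and 11 in KO1 and 10 and 6 in WT. The dynein light intermediate chain DYNC1LI2 had 175 and 111 CPM in KO2 and 130 and 80.0 in WT. ELMO3, which acts with DOCK exchange factors, had 80.4 and 137 CPM in KO2, 93.9 and 124 in KO1 and 82.9 and 99.7 in WT, so it was higher in KO2 in the HCT116 set only. ENKD1, a centrosomal microtubule-binding protein, had 15.7 and 29.1 CPM in KO2, 19.4 and 29.8 in KO1 and 12.7 and 25.4 in WT.

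The 8 metabolic and lipid enzymes were all above 0, with a median of 0.35. CES2, an intestinal and hepatic carboxylesterase that activates irinotecan, had 59.1 and 76.7 CPM in KO2, 39.1 and 57.9 in KO1 and 39.8 and 42.6 in WT, a log2 fold change of 0.70. Both KO2 libraries lay above all 4 others. Its neighbour and paralogue CES3 had 18.9 and 14.8 CPM in KO2, 9.52 and 9.12 in KO1 and 11.9 and 12.1 in WT; exons of both overlap 1 and the same further annotated gene, so their reads are less certain. GOT2, an enzyme of the malate-aspartate shuttle and the member with the highest mean log2 CPM, had 237 and 294 CPM in KO2, 199.5 and 257 in KO1 and 214 and 269 in WT, a log2 fold change of 0.14. Its groups overlapped. HSD11B2, which inactivates cortisol, had 8.43 and 19.7 CPM in KO2, 5.96 and 12.7 in KO1 and 6.44 and 21.3 in WT, with opposite directions in the sets. The palmitoyltransferase ZDHHC1 (0.66), the cholesterol-esterifying enzyme LCAT (0.65), the phosphatase PDP2 of the pyruvate dehydrogenase complex (0.21) and the lysosomal phospholipase PLA2G15 (0.07) complete the group, on the log2 scale of KO2 over WT.

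Among genes of protein turnover, targeting and nuclear import the median was 0.30 and 7 of 7 were above 0. PSMB10, a catalytic subunit of the immunoproteasome, had 1.47 and 4.63 CPM in KO2, 0.067 and 4.79 in KO1 and 0.521 and 2.67 in WT. These rest on 28 and 67 reads in KO2, 1 and 62 in KO1 and 8 and 34 in WT, and the log2 fold change was 1.13. The HCT116 library stood above the HCT library in every group, and KO1 lay below WT in the HCT set and above it in the HCT116 set. NUTF2, which carries Ran into the nucleus, had 169 and 246 CPM in KO2, 106 and 215 in KO1 and 114 and 237 in WT. TMEM208, a membrane protein of the endoplasmic reticulum, had 22.5 and 45.5 CPM in KO2, 18.4 and 43.5 in KO1 and 18.3 and 52.7 in WT, with opposite directions in the sets. NAE1, a subunit of the NEDD8-activating enzyme, had 110 and 118 CPM in KO2 and 91.2 and 104 in WT, so both KO2 libraries were above both WT libraries by a small margin. FBXL8, an F-box protein, had 8.90 and 15.3 CPM in KO2, 5.495 and 6.11 in KO1 and 8.85 and 8.65 in WT. CIAO2B (0.07) and RANBP10 (0.30), a Ran-binding protein, were the other members of the group, on the log2 scale of KO2 over WT.

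The 9 genes of transcription and chromatin had a median of 0.25, with 8 above 0. HSF4, a heat shock factor best known from the lens, had 18.999 and 28.8 CPM in KO2, 13.2 and 16.8 in KO1 and 10.8 and 16.1 in WT, a log2 fold change of 0.83. Both KO2 libraries lay above all 4 others. E2F4 had 195 and 263 CPM in KO2, 137 and 198 in KO1 and 138 and 244 in WT, and CBFB, the partner of RUNX factors, had 146 and 122 in KO2, 109 and 119 in KO1 and 111 and 114 in WT. The KO2 difference of E2F4 and CBFB was larger in the HCT set. CTCF had 97.7 and 90.8 CPM in KO2, 70.8 and 88.8 in KO1 and 77.9 and 89.0 in WT. The zinc finger gene ZFP90, the last member, had 36.3 and 25.6 CPM in KO2, 41.9 and 19.6 in KO1 and 40.6 and 19.98 in WT, and THAP11, a zinc finger factor of stem cell growth, had 34.9 and 52.2 in KO2, 31.7 and 46.1 in KO1 and 35.1 and 50.4 in WT. Both were lower in KO2 within the HCT set and higher within the HCT116 set, with fitted log2 fold changes of 0.09 for ZFP90 and 0.02 for THAP11. ZFP90 had log2 ratios of −0.16 and 0.35 within the sets. SETD6, a lysine methyltransferase, was lower in KO2 in both sets, with 16.2 and 23.7 CPM in KO2, 21.2 and 31.7 in KO1 and 16.8 and 32.1 in WT. The calcium-dependent factor NFATC3 (0.27) and the arginine methyltransferase PRMT7 (0.27) were above 0 in both sets.

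The 3 genes of replication, centromere and telomere had a median of 0.28. GINS3, part of the replicative helicase, had 20.8 and 29.2 CPM in KO2, 12.3 and 32.4 in KO1 and 14.7 and 35.2 in WT, in opposite directions between the sets. The kinetochore protein CENPT had 67.6 and 108 CPM in KO2 and 45.3 and 93.1 in WT, and the shelterin subunit ACD had 58.3 and 97.8 in KO2 and 41.5 and 92.1 in WT. Both were higher in KO2 in each set, by more in the HCT set.

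Genes of RNA turnover, splicing and modification had the lowest median of the named groups, 0.06. CNOT1, the scaffold of the CCR4-NOT deadenylase, had 281 and 159 CPM in KO2, 321 and 160 in KO1 and 330 and 133 in WT, a log2 fold change of 0.01. It was lower in KO2 within the HCT set and higher within the HCT116 set. EDC4, a scaffold of mRNA decapping, had 171 and 240 CPM in KO2, 134 and 208 in KO1 and 134 and 229 in WT. DDX28, a mitochondrial RNA helicase, had 16.5 and 25.3 CPM in KO2, 11.7 and 24.0 in KO1 and 12.8 and 29.6 in WT, again in opposite directions. The epithelial splicing factor ESRP2 (0.20) and the dihydrouridine synthase DUS2 (0.06) were above 0 in both sets.

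Signalling and cell death genes had a median of 0.20 over 8 tested members, with 6 above 0. CMTM4, which stabilises PD-L1 at the cell surface, had 62.2 and 51.0 CPM in KO2, 81.8 and 66.3 in KO1 and 77.6 and 69.0 in WT. It was the member with the lowest value, a log2 fold change of −0.38, and the only tested member with both KO2 libraries below both WT libraries. Its paralogue CMTM3 had 27.5 and 36.8 CPM in KO2, 18.96 and 32.4 in KO1 and 18.1 and 42.7 in WT, in opposite directions between the sets. CSNK2A2, a catalytic subunit of casein kinase 2 and the first member, had 46.3 and 41.7 CPM in KO2, 56.3 and 30.1 in KO1 and 53.8 and 36.8 in WT, a log2 fold change of −0.01. The death domain adaptor TRADD (0.28), the caspase inhibitor NOL3 (0.37), the kinase PSKH1 (0.22), the polarity protein PARD6A (0.08) and NDRG4 (0.37) were above 0 in both sets. Of the 2 members given no role here, GFOD2 had 25.2 and 31.9 CPM in KO2, 20.6 and 31.4 in KO1 and 21.2 and 42.1 in WT, a log2 fold change of −0.08. KIAA0895L had 39.9 and 45.3 CPM in KO2, 34.9 and 39.3 in KO1 and 35.1 and 47.0 in WT. Both differed in direction between the sets.

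**Figure D3:**
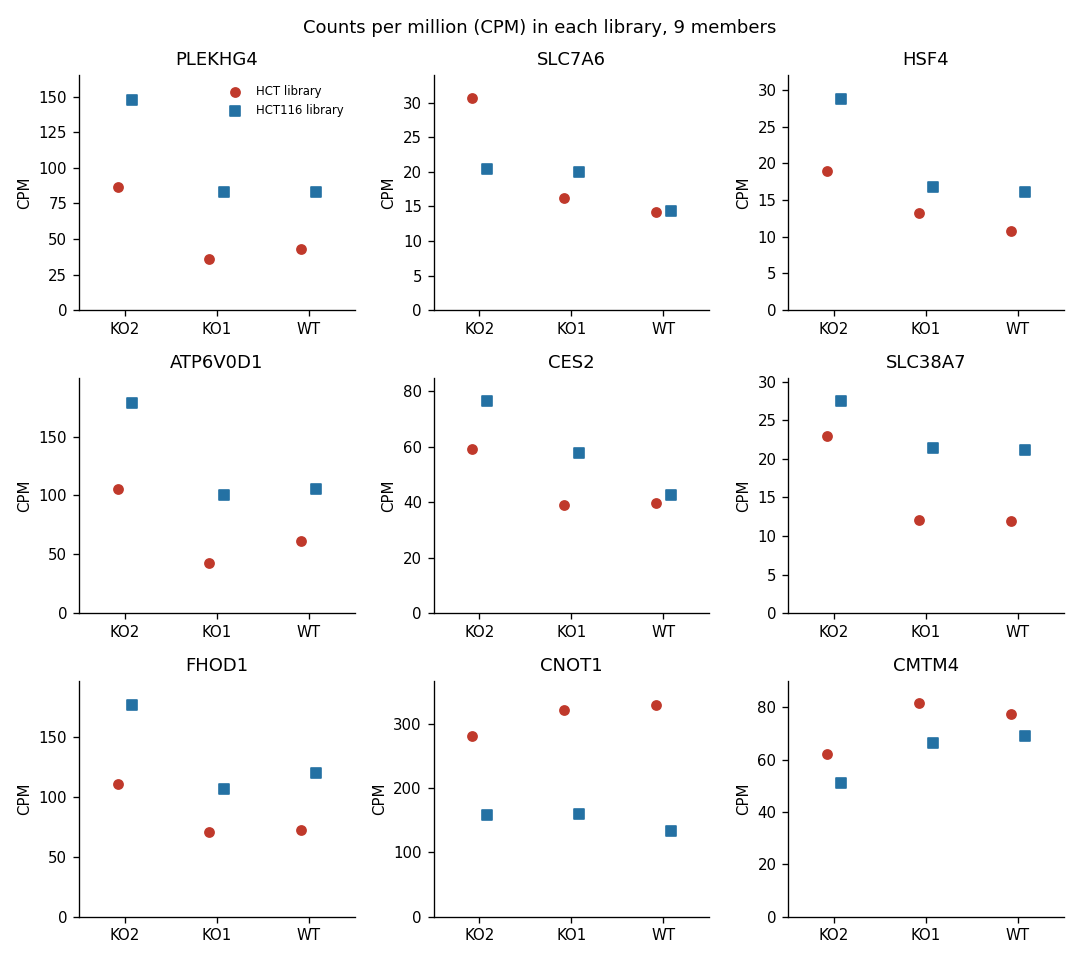
Each panel gives the CPM of 1 member in the 6 libraries, with KO2, KO1 and WT from left to right, circles for HCT and squares for HCT116 libraries, and an axis that starts at 0. In the 7 panels from PLEKHG4 to FHOD1 KO2 lies above WT within each set; CNOT1 (log2 fold change 0.01) and CMTM4 (−0.38) do not follow.

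KO1 against WT is the comparison the choice of genes did not use, although it shares the WT libraries. By edgeR's quasi-likelihood test with Benjamini-Hochberg adjustment over all tested genes, 0 of the 53 members were called, where 1.03% of all tested genes were. DESeq2 also called 0. At so low a share, 0 calls is not read as a lack of change. At an unadjusted p of 0.05, 5 members passed (9.43%, against 8.85% of all tested genes), NDRG4, ENKD1 and ESRP2 with higher and FBXL8 and PARD6A with lower values. The smallest adjusted p was 0.413, for NDRG4, which had 37.3 and 34.3 CPM in KO2, 38.7 and 34.1 in KO1 and 31.7 and 24.0 in WT; its log2 fold change of KO1 over WT was 0.39 with a standard error of 0.15. FBXL8 had the lowest value, −0.60 with a standard error of 0.26 and an adjusted p of 0.518 by edgeR. Its exons overlap those of TRADD on the other strand. The median log2 fold change of KO1 over WT was −0.08, against 0.00 over all tested genes to 2 decimals, and 22 of 53 members (41.5%) were above 0, against 50.3% of all tested genes. Within sets the medians were −0.02 and −0.07. With the HCT116 library of WT left out the median was 0.025, and with the HCT library of KO2 left out NDRG4 was called. The standard error of a single member ranged from 0.115 to 0.643 in this comparison.

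KO2 against KO1 shares the KO2 libraries with the contrast the list came from and is given as a description. The fitted log2 fold change was above 0 for 45 of 53 members, against 50.0% of all tested genes, with a median of 0.34. By edgeR 9 members were called higher and 0 lower, where 4.24% of all tested genes were called higher and 5.39% lower. The count of called members moved when a library was left out. With no term for the set it was 0, as it was over all tested genes. The 9 were CES3, FBXL8, HSF4, E2F4, FHOD1, SLC9A5, PLEKHG4, ZDHHC1 and ATP6V0D1. In the comparison of KO2 with WT, FHOD1, PLEKHG4, ATP6V0D1, HSF4 and CES2 were called. ATP6V0D1 had the largest value of KO2 over KO1, 1.05 on the log2 scale, and SETD6 the lowest, −0.40.

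The difference between the library sets was larger than that between groups. By edgeR, 35 of the 53 members were higher and 7 lower in the HCT116 set than in the HCT set, where 31.8% of all tested genes were higher and 32.1% lower. The median log2 fold change of the HCT116 set over the HCT set was 0.59, against −0.02 over all tested genes and 0.38 over the other 549 tested genes of chromosome 16. PSMB10 had the highest value, 2.61 with a standard error of 0.52 (adjusted p = 0.00106 by edgeR), and PARD6A followed at 1.57 with a standard error of 0.17. CNOT1 had the lowest, −1.05 with a standard error of 0.11 (adjusted p = 1.8e-05 by edgeR). By median the members' KO2 difference was larger in the HCT set, and their level was higher in the HCT116 set.

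Where the raised stretch begins and ends was described with the genes around it. The 19 tested genes that lie between members but are not on the list had a median log2 fold change of KO2 over WT of 0.24, with 15 above 0, next to 0.25 for the members. Within the HCT and the HCT116 set the medians were 0.36 and 0.19 for the members, and 0.24 and 0.48 for these 19 genes. Their highest values were 0.83 for TSNAXIP1, 0.81 for B3GNT9, a glycosyltransferase, and 0.66 for TK2, the mitochondrial thymidine kinase. Their lowest were −0.35 for CARMIL2, −0.24 for SMPD3, a neutral sphingomyelinase, and −0.10 for BEAN1. The nearest 20 tested genes before CSNK2A2 had a median of 0.14 with 15 above 0, and the nearest 20 after ZFP90 a median of 0.31 with 17 above 0. Over all tested genes 50.0% were above 0 in KO2 over WT. In KO1 over WT the median of the 20 before was −0.10 with 4 above 0, of the 19 between 0.02 with 10 above 0 and of the 20 after −0.11 with 5 above 0. Over all tested genes 50.3% were above 0 in KO1 over WT.

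**Figure D4:**
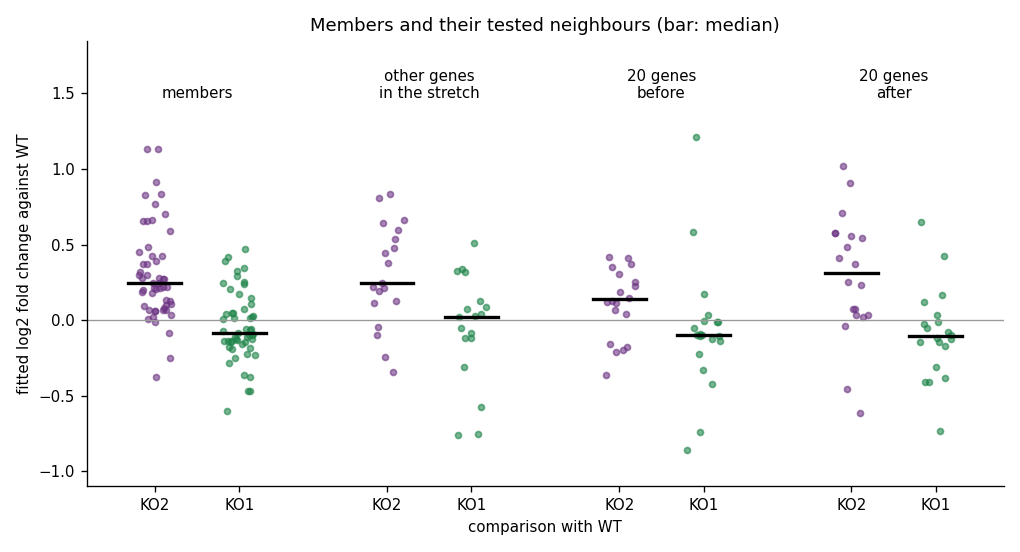
Points are fitted log2 fold changes against WT of the 53 tested members, the 19 other tested genes in the stretch and the nearest 20 tested genes on each side, KO2 left of KO1 in each group, with a bar at the median. KO2 medians are 0.25, 0.24, 0.14 and 0.31 from left to right, and KO1 medians −0.08, 0.02, −0.10 and −0.11.

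At the near edge, outside the list, USB1, an RNA exonuclease, had a log2 fold change of KO2 over WT of 0.22, with 115 and 137 CPM in KO2, 79.2 and 127 in KO1 and 88.6 and 131 in WT. The matrix metalloproteinase MMP15 had −0.20, with 133 and 138 CPM in KO2, 161 and 139.9 in KO1 and 155 and 156 in WT. The ciliary protein CFAP20 had 0.04, with 59.4 and 74.002 CPM in KO2, 52.2 and 78.2 in KO1 and 51.7 and 80.6 in WT, and was followed inside by −0.01 for CSNK2A2. At the far edge, ZFP90 inside the list had 0.09 and outside it CDH3 (P-cadherin) had 0.58, CDH1 (E-cadherin) −0.04 and TANGO6 0.03, with 19.8 and 25.4 CPM in KO2, 16.8 and 23.4 in KO1 and 18.2 and 26.4 in WT. CDH3 had 443 and 384 CPM in KO2, 291 and 235 in KO1 and 299 and 255 in WT. CDH1 had 147 and 61.0 CPM in KO2, 184 and 92.0 in KO1 and 151 and 62.1 in WT. The pair lie side by side, and KO2 libraries were above WT for P-cadherin alone. Among the 20 genes after ZFP90, edgeR called 4 higher in KO2, CDH3, HAS3, TERF2 and NQO1, and 0 lower. Of all tested genes 2.15% were called higher and 2.47% lower.

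A running median over 31 tested genes was taken in chromosome order. Its first window above 0.1 was centred on FTO, 35 tested genes before the first member. The last was centred on CLEC18B, 48 after the last member. Whether every window between them was above 0.1 is not given. Inside the stretch the running median ran between 0.12, at CSNK2A2, and 0.30, at FBXL8. The highest window of chromosome 16 lay beyond the members, 0.40 at DDX19B. The lowest lay near the end of the arm, −0.67 at ANKRD11. In KO1 the same windows inside the stretch ran between −0.13 and −0.05. The members before the gene-poor interval had a median of 0.12 over 7 genes and those after it 0.26 over 46. Over the 317 tested genes of chromosome 16 before the widest gap between tested genes the median was −0.06, over the 62 from that gap to the first member 0.09 and over the 151 after the last member −0.12. The whole chromosome had a median of 0.01 over 602 tested genes, so values above and below 0 both occur along it.

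**Figure D5:**
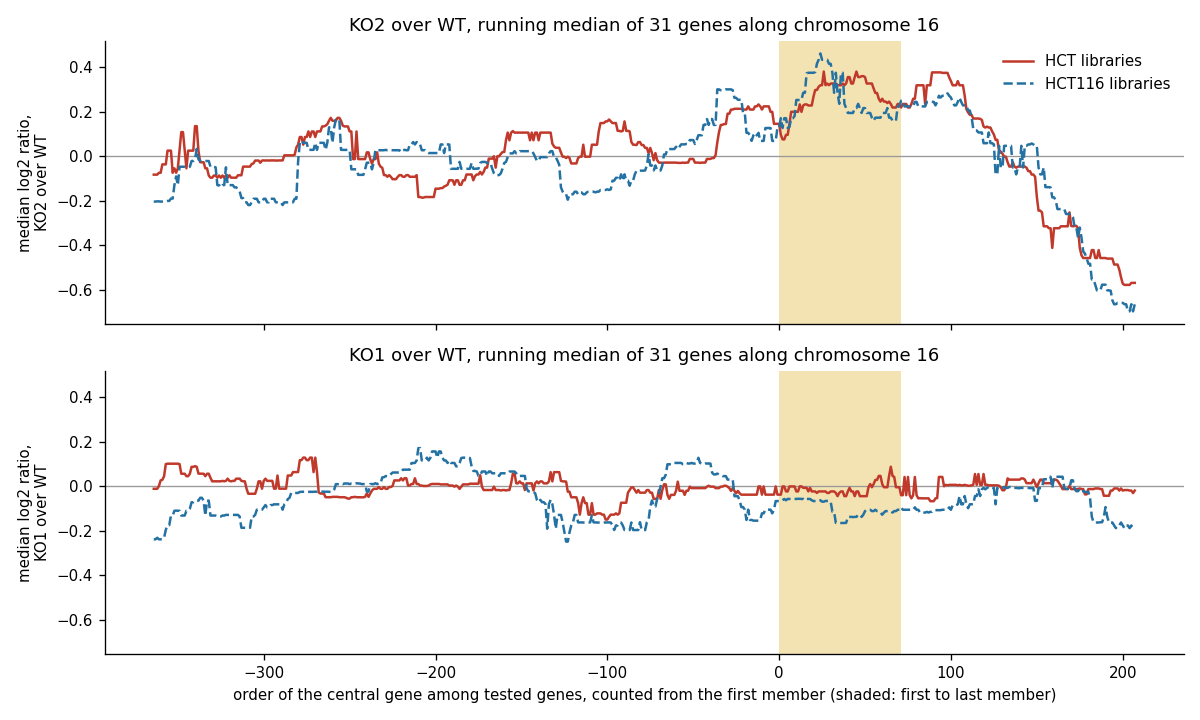
The vertical axis is the running median, over 31 tested genes, of the log2 ratio within a set, KO2 over WT above and KO1 over WT below; the horizontal axis is gene order along chromosome 16 counted from the first member, solid lines are HCT and dashed lines HCT116 libraries, and shading covers the first to the last member. Both KO2 lines are above 0 throughout the shading and continue above 0 on either side of it. They go below 0 towards the end of the arm, where the fitted values reach −0.67. The fitted KO1 windows inside the shading ran between −0.13 and −0.05.

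Exons of 36 of the 54 members overlap those of another annotated gene, 29 on the other strand and 14 on the same strand. The 18 tested members with no such overlap had a median log2 fold change of KO2 over WT of 0.21, with 15 above 0. Without the 3 tested members with the fewest reads the median was 0.22 over 50 genes. Members whose WT level per kilobase was at or above the median had a median fold change of 0.21 over 27 genes on this scale and those below it 0.28 over 26. The list was proposed for being raised in KO2, so a median above 0 was likely in any such subset and nothing is read from it. The part of overlap or level in the values was not tested. Of the members called in KO2 against WT, ATP6V0D1 had no such overlap, while CES2, HSF4, FHOD1 and PLEKHG4 did.

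Many members encode single subunits of larger complexes, and partner genes of these complexes were listed, of which 78 were tested. In KO1 against WT 0 of the 78 were called by edgeR, where 1.03% of all tested genes were, and the median log2 fold change was −0.01. In KO2 against WT 2 rose and 1 fell by edgeR, where 2.15% of all tested genes rose and 2.47% fell. ATP6V0A1, another membrane subunit of the proton pump, on chromosome 17, had 118 and 124 CPM in KO2, 93.3 and 76.6 in KO1 and 88.7 and 76.9 in WT; its log2 fold change of KO2 over WT was 0.55 with a standard error of 0.13 (adjusted p = 0.0364 by edgeR). TERF2, a shelterin subunit on chromosome 16 just beyond ZFP90, rose by 0.49 on the log2 scale, with 113 and 118 CPM in KO2, 73.6 and 75.4 in KO1 and 84.3 and 80.5 in WT. SLC7A5, an amino acid exchanger near the end of chromosome 16q, fell to 383 and 592 CPM in KO2, against 505 and 1110 in KO1 and 537 and 1434 in WT, a log2 fold change of −0.88. The 73 tested partners off chromosome 16 had a median of −0.04 in KO2 over WT, with 32 above 0. The 11 tested proton pump partners had a median of 0.07, beside 0.77 for ATP6V0D1, and the 10 tested CCR4-NOT partners −0.04, beside 0.01 for CNOT1. The 4 tested shelterin partners had 0.16, beside 0.28 for ACD, and other complexes are not given here. These members were on the list proposed for being raised in KO2, so nothing is read from their distance to the partners. With no term for the set or without the HCT116 library of WT none of the 3 partners was called, and TERF2 was also not called by DESeq2 or with median-of-ratios size factors in edgeR. ATP6V0A1 and TERF2 were likewise not called when either KO1 library or the HCT library of WT was left out. In KO2 against KO1 3 partners were higher and 1 lower, where 4.24% of all tested genes were higher and 5.39% lower, with the pump subunit ATP6V0E1 added to those called.

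The authors' deposited table gave 0 of the 54 members an adjusted p of 0.05 or less in either comparison, where 0.191% of all its genes had one for KO2 against WT and 0.0386% for KO1 against WT. For KO2 against WT the median log2 fold change of the members in the authors' deposited table was 0.18, with 42 of 54 above 0, against 42.6% of all its genes. For KO1 against WT the median in the authors' deposited table was −0.11, with 17 of 54 above 0, against 46.0% of all its genes. The authors' deposited table gave PLEKHG4 a log2 fold change of 0.84 and ATP6V0D1 0.72 for KO2 against WT. The direction over the members was the same as in the fits above, with fewer members above 0 in KO2.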

How the data were processed

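Poly(A) RNA of 6 libraries was measured as raw counts per gene in deposited tables, 1 for each MUC3A guide, both with the same WT columns. Per the submitters' processing notes, the build was hg18 and the software included HTSeq 0.6.0, DESeq2 and STAR, with no role stated for each. Whether counting used strand is not stated. The authors also deposited log2 fold changes, p-values and adjusted p-values per the file headers, printed here for the members and as shares over all genes of a table. The tables share 15284 genes; 264 genes of the KO1 table alone and 429 of the KO2 table alone were left out, and 40 further columns of per-sample values were not used.

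Counts were fitted with edgeR 4.0.16 in R 4.3.3 (TMM scaling, filterByExpr with a minimum count of 10, quasi-likelihood test, Benjamini-Hochberg adjustment over 12678 genes at 0.05) on all 6 libraries, with group and the prefix of the library name as terms. Standard errors of log2 fold changes were derived from the fitted F statistic. CPM are TMM-scaled, and ratios within a set use a prior count of 2. Libraries sharing a prefix deviated together: the correlation of their deviations was 0.867 for KO1 and WT, 0.815 for KO2 and WT and 0.783 for KO2 and KO1. The biological coefficient of variation was 0.118 with the prefix and 0.383 without it. The libraries of a group differed beyond sampling noise (chi-square over degrees of freedom 81.5 in KO2, 105 in KO1 and 122 in WT).

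Gene order, exon overlaps and exon lengths come from GENCODE v29 on GRCh38, not from the build of the files, so CPM per kilobase is approximate. The members, role groups and partner list were chosen with earlier results of these data known. Given in full were members called in KO1 against WT, the 8 largest and 6 smallest fold changes of KO2 over WT, the 6 highest mean levels, the first and last member with 3 tested genes outside each, members whose direction differed between sets, the 3 highest and 3 lowest other genes between members, and partners called; further members were added for their roles after their values were seen. Alternatives were DESeq2 1.42.0, other scalings, no filter, no prefix term, each library left out in turn and, chosen after seeing the data, members under their own symbol only. A listed marker gene is not reported here.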

Additional observations from a re-analysis of the deposited data

How the results depend on the processing

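Leaving out a library leaves its group with a lone sample, assumed to vary like the others. In KO2 against WT the median log2 fold change of the members stayed between 0.21 and 0.31, and in KO2 against KO1 between 0.22 and 0.43, under every alternative run. The counts of called members moved more. In KO2 against WT there were 5, against 0 with no replicate block, 8 with upper-quartile scaling, 9 with no filter on low counts and 1 to 20 when a library was left out. In KO2 against KO1 there were 9, against 0 with no replicate block, 14 with upper-quartile scaling, 14 with no filter and 2 to 27 when a library was left out. In KO1 against WT the count was 0 and became 0 to 1 when a library was left out; the median ran from −0.11 to 0.025, positive without the HCT116 library of WT. The cause of these shifts was not tested. DESeq2 and median-of-ratios scaling also moved the count in KO2 against WT. Apart from the fits with and without the block, the share of all tested genes called is not given. Nothing is therefore read from how these counts moved. Between sets the count of called members also moved with the setting. PSMB10, on few reads, had a log2 fold change of KO2 over WT of 0.49 with the HCT library of KO2 left out and 2.40 with the HCT116 one left out. The replicate block was the prefix of the library names, part of the main design. Across all genes edgeR called 130 for KO1 against WT, 585 for KO2 against WT and 1220 for KO2 against KO1 with this block, and 0 in each without it.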
